A study of Drosophila melanogaster with 24 samples.

Results

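Broad Stwl domains are the stretches of the fly genome that an unbroken Stwl interval covered for 8000 bp or more in ovaries. They were chosen by the width of the called intervals alone, in each of the 2 Stwl lists of the study, on the arms 2L, 2R, 3L, 3R and X of the dm6 assembly. The stretches of 2L, 3L, 3R and X nearest the centromeres, and chromosomes 4 and Y, were left out. The rule set no such limit on 2R, so the stretch of 2R nearest the centromere was kept. The rule chose 266 of the 12888 intervals of bam GKD ovaries and 79 of the 8585 intervals of WT ovaries. A further 51 wide intervals of bam GKD were left out, 37 on chromosome 4 and 14 near centromeres, and a further 32 of WT, 30 on chromosome 4 and 2 near centromeres. The members just inside the threshold measured 8007 and 8007 bp in bam GKD and 8019 and 8030 bp in WT. The intervals just outside it measured 7990 and 7975 bp in bam GKD and 7981 and 7979 bp in WT. Between 7000 and 8000 bp lay 108 bam GKD and 40 WT intervals, against 62 and 26 between 8000 and 9000 bp, so the threshold cuts a continuous range of widths.

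CUT&RUN releases the DNA around an antibody-bound protein with a tethered nuclease, and here it was run on dissected Drosophila melanogaster ovaries. The 24 samples held 1 sample in each group, and interval lists of 3 of them were used: Stwl in bam GKD ovaries, Stwl in WT ovaries and BEAF in WT ovaries. The labels give bam GKD, a knockdown of bam in the germline, as enriched for undifferentiated stages and WT as differentiated stages; the driver, the flies' age and the share of somatic cells in each ovary were not given in the sources used here. With 1 list per group there is no replicate error and no test, and every difference below is between lists, not conditions. The lists carry no read counts, so depth is unknown. Intervals printed beside shares and densities are exact 95% intervals and cover counting error only.

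Stwl, the product of stonewall, is a chromatin-associated DNA-binding protein needed to keep germline stem cells in the fly ovary. The bam gene encodes the switch that starts differentiation of the stem cell daughter, so germ cells without it stay in an early state. BEAF binds near the starts of many genes and is known as a boundary or insulator protein. A wide interval in a list of this kind can be a continuous stretch of occupancy or a row of neighbouring sites that the interval caller joined, and the lists do not tell these apart. Neighbouring Stwl intervals were at least 1001 bp apart in bam GKD and in WT. Neither list held a shorter gap, so unbroken here means only free of gaps of 1001 bp or more.

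The domains covered 3.46 Mb in bam GKD and 0.986 Mb in WT. Their median width was 10557 bp in bam GKD (quartiles 9062 and 14149, widest 81541) and 9580 bp in WT (quartiles 8743.5 and 12198.5, widest 72696). In bam GKD, 109 domains were below 10 kb, 99 lay between 10 and 15 kb and 58 were wider, against 43, 23 and 13 in WT. The widest domain of bam GKD and the widest 2 of WT, all at chorion gene clusters, stood apart from the rest of their list. All Stwl intervals of the same stretches had a median of 794 bp among 12155 in bam GKD and 714 bp among 8055 in WT. How much of the difference in number follows from depth or from the setting of the interval caller was not tested.

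**Figure D1:**
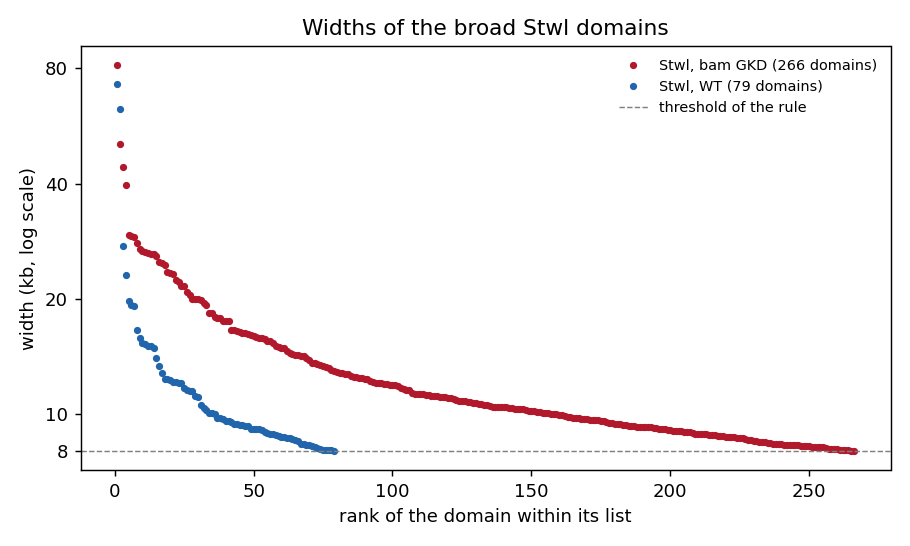
Width of every broad Stwl domain (kb, log axis) against its rank within its list, bam GKD in red (266 domains) and WT in blue (79 domains), with the 8 kb threshold dashed. Both curves flatten toward the threshold, and the widest points are the chorion domains of 81541 bp in bam GKD and 72696 bp in WT.

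The X chromosome held 73 of the 266 bam GKD domains, or 27.4% (22.2 to 33.2), where it held 19.8% of all bam GKD intervals. It held 37 of the 79 WT domains, or 46.8% (35.5 to 58.4), where it held 19.8% of all WT intervals. Of the intervals of 6 to 8 kb, just below the threshold, it held 32.2% in bam GKD and 24.3% in WT. Of the domains of 15 kb or more it held 19.0% in bam GKD and 38.5% in WT. The higher share on X was thus not particular to the domains in bam GKD. Arm 3R was at the other end in both lists, with 26 domains in bam GKD and 3 in WT, although it carried 21.7% of all bam GKD and 21.9% of all WT intervals. The remaining domains were 62 on 2L, 36 on 2R and 69 on 3L in bam GKD, and 17, 8 and 14 on the same arms in WT. Runs of domains, each within 10 kb of the next in its list, held 83 bam GKD domains (31.2%) and 20 WT domains (25.3%). The same share was not computed for intervals of other widths, so it is not read as a trait of the domains. The longest run was the chorion region of X, with 5 domains over 97632 bp in bam GKD and 3 domains over 84871 bp in WT.

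Overlapping domains of the 2 lists were joined into 294 loci. Of these, 50 held a domain in both lists, 215 in bam GKD only and 29 in WT only. A locus of 1 list was seldom empty in the other. Of the 266 bam GKD domains, 264 (99.2%, 97.3 to 99.9) were overlapped by a WT interval of some width, where 52.0% of all bam GKD intervals were. All 79 WT domains (95.4 to 100.0) were overlapped by a bam GKD interval, where 85.1% of all WT intervals were. A wide interval has more room to be overlapped than a narrow one, so these shares were read with the share of bases covered. WT intervals covered 50.4% of the bases of bam GKD domains, where they covered 41.2% of the bases of all bam GKD intervals. The bam GKD intervals covered 88.8% of the bases of WT domains, where they covered 77.1% of the bases of all WT intervals. Much of the contrast between the lists was thus present over all intervals. Over single domains the median share was 48.3% in bam GKD (quartiles 23.6 and 72.7) and 92.4% in WT (quartiles 83.9 and 99.9, lowest 32.8). The bam GKD domains spread over the whole range from uncovered to fully covered, while WT domains were mostly covered. The median share over all intervals was 9.12% in bam GKD and 93.8% in WT. Most of these are far narrower, so intervals of 6 to 8 kb were also set beside the domains. In bam GKD the other list overlapped 91.6% of them and covered 47.4% of their bases, with a median share of 47.6%. In WT these values were 99.0%, 84.7% and 96.3%.

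**Figure D2:**
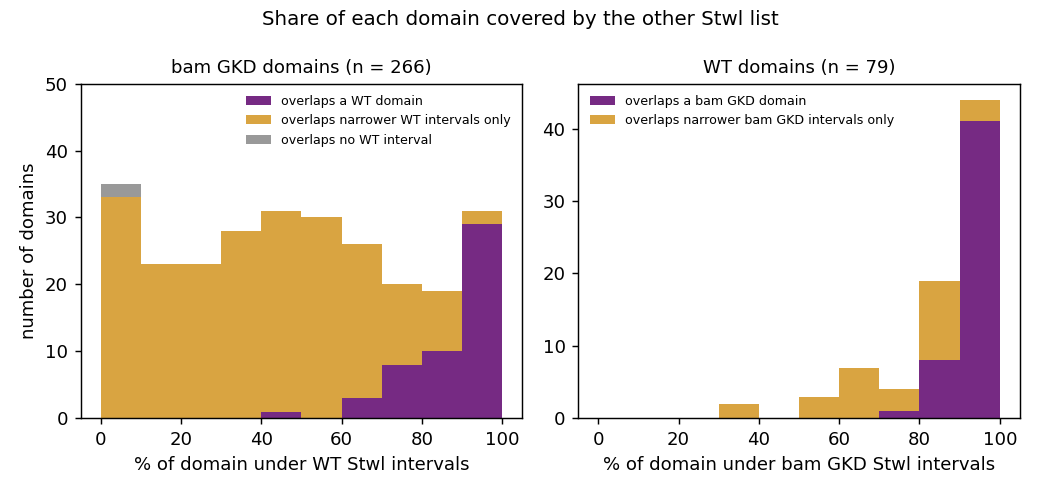
Number of domains by the percent of their bases under intervals of the other Stwl list, bam GKD domains on the left and WT domains on the right, coloured by whether the other list held a domain there (purple), only narrower intervals (ochre) or nothing (grey). The bam GKD domains run from 0 to 100% (median 48.3%) and the WT domains gather at the high end (median 92.4%).

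Where both lists had a domain, the match was close but seldom exact. The 50 shared loci gave 51 overlapping pairs. The bam GKD domain was the wider in 32 pairs and the WT domain in 19, with a median width ratio of 1.09 (bam GKD over WT, quartiles 0.965 and 1.35). Of the 102 borders, 26 lay within 100 bp of each other, 47 within 500 bp and 17 more than 5000 bp apart, with a median distance of 583 bp. The bam GKD border was the outer one at 64 borders and the inner one at 38. Only 9 pairs matched at both borders within 500 bp.

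Where a bam GKD domain met only narrower WT intervals, these covered 39.4% of its ground over all 213 such domains, with a median of 39.5% (lowest 1.71, highest 95.8). Of the 213, 46 held 1 WT interval, 68 held 2 and 99 held 3 or more, up to 12. The gaps between these WT pieces had a median of 1875.5 bp, and 196 of 352 were 2000 bp or shorter. The shortest measured 1001 bp, which is also the smallest gap of the whole WT list. The widest WT piece in a domain had a median width of 2933 bp, and in 47 domains it stayed below 1000 bp. In 96 of the 213 the WT pieces reached across 8000 bp or more from first to last. The 29 WT domains without a bam GKD domain held 1 bam GKD interval in 6, 2 in 15 and 3 or more in 8, and the widest had a median of 5985 bp. Only 2 bam GKD domains met no WT interval: 2L:18422271-18431239 (8969 bp) and 3L:37466-53731 (16266 bp), neither of which overlapped a protein-coding gene. No WT domain was without bam GKD intervals.

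The borders themselves showed the same asymmetry. A point 250 bp outside a bam GKD domain was under a WT interval at 9.02% of 532 borders, a point 250 bp inside at 34.0%, and a point 3750 bp inside at 51.3%. Around the 158 borders of WT domains, bam GKD intervals covered 38.6% of points 250 bp outside, 76.6% of points 250 bp inside and 92.4% of points 1250 bp inside. Stwl cover of the other list therefore stepped at both kinds of border, and it was higher on both sides of WT borders. All bam GKD intervals of these stretches covered 19.6 Mb and all WT intervals 10.5 Mb, so the 2 covers have unequal starting points. The same profile was not computed at the borders of all intervals.

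**Figure D3:**
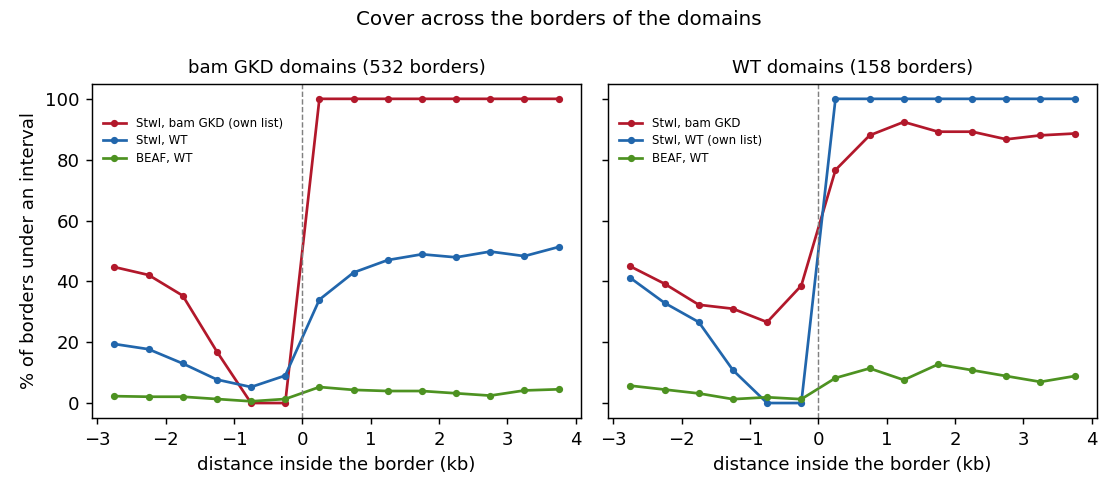
Percent of domain borders whose point at a given distance (kb, positive inside the domain) lies under a bam GKD Stwl, WT Stwl or BEAF interval, for bam GKD domains (left) and WT domains (right). A list's own cover is 100% inside and 0% just outside by construction; the other Stwl list steps to 34.0% just inside bam GKD domains and 76.6% just inside WT domains.

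The widest shared loci were the 2 chorion gene clusters. Chorion genes encode eggshell proteins, and follicle cells are known to amplify both clusters late in egg formation. All 9 listed chorion genes lay inside a domain in both lists. On 3L, Cp18, Cp15, Cp19 and Cp16 lay in a bam GKD domain of 81541 bp (8678864 to 8760404) and a WT domain of 72696 bp (8688702 to 8761397), with the paramyosin gene Prm and part of the formin gene Fhos. On X, Cp7Fa, Cp7Fb, Cp7Fc, Cp36 and Cp38 lay in a bam GKD domain of 50884 bp (8463043 to 8513926) and a WT domain of 62801 bp (8463044 to 8525844). The same X domains held otu, which encodes a deubiquitinase needed in germ cells, and most or all of CG33181. The left borders on X differed by 1 bp, and WT stayed unbroken where bam GKD had a gap and a second domain of 9788 bp. These loci held 43 BEAF intervals on 3L and 44 on X. A second shared locus followed the chorion domain on 3L inside Fhos, with 23163 bp in bam GKD, 19201 bp in WT and 10 BEAF intervals. Domains at genes known to be amplified were present although bam GKD is labelled as undifferentiated; the contribution of somatic follicle cells or of DNA copy number was not tested.

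The shared locus with the most nearly equal widths among the 8 widest was in the ecdysone receptor gene EcR (2R, 6087873 to 6169087). It measured 23355 bp in bam GKD (6150326 to 6173680) and 23056 bp in WT (6150620 to 6173675). The right borders lay 5 bp apart. It covered 23.1% of the EcR gene in bam GKD and 22.7% in WT, and it held 14 tRNA genes, for asparagine, arginine, lysine and isoleucine, in both lists. On 2L, a shared locus at the left end of miles to go (mtgo) and the neighbouring CG5953 measured 28988 bp in bam GKD and 19178 bp in WT. The 2L locus of the vitelline membrane gene Vm34Ca and CG42784 measured 24957 bp in bam GKD and 15201 bp in WT. At mei-P26, a gene needed for germ cells to differentiate, the domain measured 23526 bp in bam GKD and 9740 bp in WT, and it covered 71.6% of the gene in bam GKD and 37.4% in WT.

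The widest domain of bam GKD only lay inside mtgo, which spans 118203 bp on 2L. It ran for 44215 bp (16561524 to 16605738) and held 12 WT pieces, the widest 4538 bp, which covered 34.4% of it. On 3L, a domain of 39733 bp (12077001 to 12116733) ran from the semaphorin gene Sema5c to vers, and 9 WT intervals covered 62.1% of it. On X, a domain of 29333 bp (3345648 to 3374980) ended in the growth regulator gene Myc, with 9.83% of the gene inside, and 6 WT intervals covered 67.7% of it. MYPT-75D, a gene for a myosin phosphatase subunit, had 67.4% of its length in a domain of 29177 bp, with 6 WT intervals over 41.1% of that domain.

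Several genes carried chains of bam GKD domains. CG9380 on 2R had 3 domains, of which the widest measured 28000 and 26972 bp. Domains covered 78.6% of its 71691 bp in bam GKD, all intervals together 88.2% in bam GKD and 21.2% in WT, and the widest WT interval there was 2263 bp. The 28000 bp domain also reached over 51.8% of Kr, a gap gene of embryo segmentation that lies within CG9380. The gene bunched (bun), which encodes a TSC22 family factor of follicle cells, had 4 domains in bam GKD, the widest 26586 bp. All intervals covered 85.0% of bun in bam GKD and 46.9% in WT, in 7 intervals in bam GKD and 17 in WT. Rbfox1, which encodes an RNA-binding protein of germ cell differentiation, had 4 domains in bam GKD, the widest 16587 bp. All intervals covered 67.4% of Rbfox1 in bam GKD and 8.46% in WT, and the widest WT interval was 2742 bp.

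The 29 loci with a domain in WT only were narrower. The widest lay over 94.9% of CG14434 on X, at 16612 bp (6852692 to 6869303), where 3 bam GKD intervals covered 59.9%. The domain of 15286 bp on 3L (19895153 to 19910438) held parts of Mi-2, a chromatin remodeller gene, and Su(Tpl), which encodes a transcription elongation factor. It was 87.9% covered by 2 bam GKD intervals, the wider of which measured 7428 bp. On X, the corepressor gene Smr had a domain of 15019 bp (68.4% under bam GKD intervals), the fimbrin gene Fim one of 15007 bp (73.7%) and the splicing helicase gene Prp16 one of 14841 bp (69.2%). The least covered of the 8 widest, which was also the least covered of all WT domains, was a domain of 13300 bp in the kinase gene Raf (X, 2293364 to 2306663). There 4 bam GKD intervals, none over 2387 bp, covered 32.8%. The checkpoint kinase gene grp had a domain of 12372 bp in WT with the miRNA genes mir-9c, mir-306, mir-79 and mir-9b inside, and 5 bam GKD intervals covered 52.6% of it. Both Smr and grp also held a domain elsewhere in the gene in bam GKD, of 12725 bp at Smr and 10975 bp at grp. The TOR pathway inhibitor gene scyl lay whole in a WT domain of 12111 bp, and 85.0% of that domain was under bam GKD intervals.

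**Figure D4:**
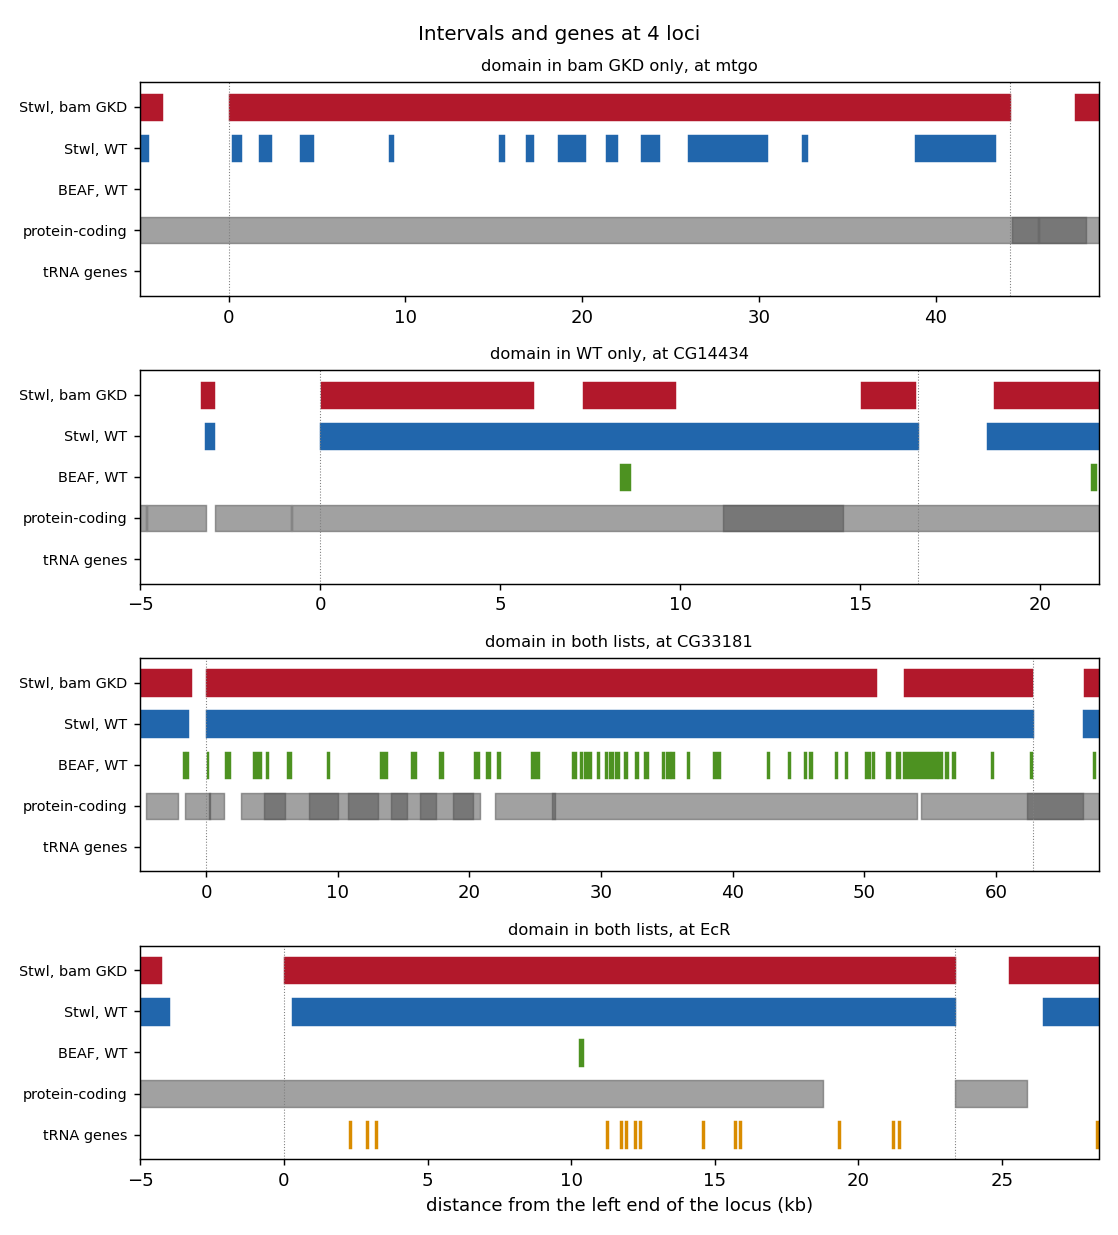
Stwl intervals of bam GKD (red) and WT (blue), BEAF intervals of WT (green), protein-coding genes (grey, darker where genes overlap) and tRNA genes (orange) at 4 loci, with distance in kb from the left end of the locus and dotted lines at its ends. At mtgo an unbroken bam GKD domain of 44215 bp stands over 12 WT pieces; at CG14434 a WT domain of 16612 bp stands over 3 bam GKD pieces; at the X chorion cluster (CG33181) and at EcR both lists are wide.

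The BEAF list was not used to choose the domains. At least 1 BEAF interval lay in 122 of 266 bam GKD domains, or 45.9% (39.8 to 52.1), where 17.7% of all bam GKD intervals had one. In WT, 65 of 79 domains, or 82.3% (72.1 to 90.0), had one, where 27.3% of all WT intervals did. Per length the order between domains and all intervals was the opposite. Any BEAF interval that overlapped by 1 bp was counted, which raises the density of narrow intervals more than that of wide ones. How much of this order comes from that counting was not tested. The bam GKD domains held 1.10 BEAF intervals per 10 kb (0.992 to 1.22) and all bam GKD intervals 1.65, and the WT domains held 2.92 (2.59 to 3.28) and all WT intervals 3.26. In bam GKD the density was 3.17 per 10 kb in intervals below 1 kb and 1.06 in those of 6 to 8 kb. In WT it was 4.78 and 1.92 in the same classes. The WT domains had 2.98 (2.46 to 3.58) at 8 to 10 kb, 1.89 (1.41 to 2.48) at 10 to 15 kb and 3.68 (3.06 to 4.39) at 15 kb or more, the class that includes the chorion clusters.

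**Figure D5:**
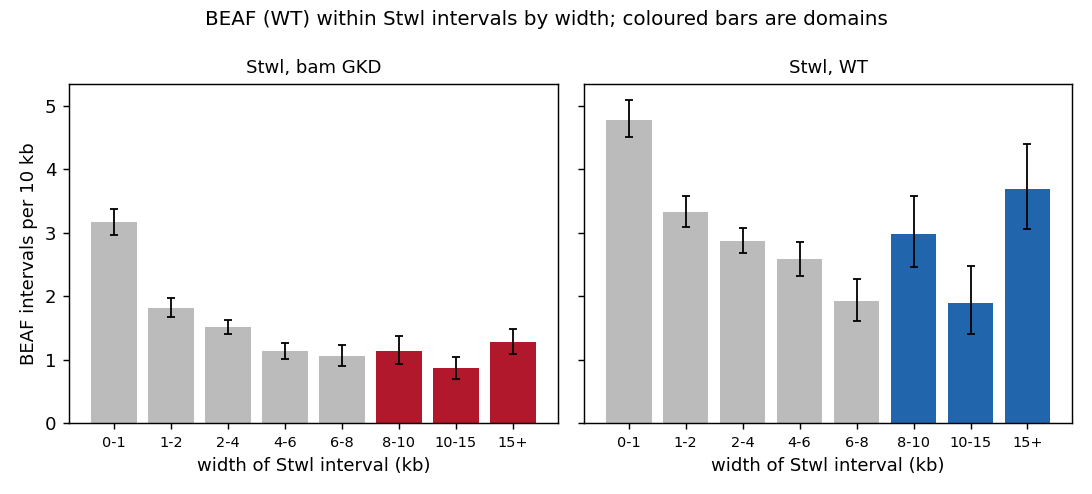
BEAF intervals per 10 kb of Stwl interval, by width class of the Stwl interval (kb), for bam GKD (left, red bars are domains) and WT (right, blue bars are domains); error bars are exact Poisson 95% intervals. The density falls from the narrowest class to 6 to 8 kb in both lists, to 1.06 in bam GKD and 1.92 in WT. The 3 domain classes of WT stand at 2.98, 1.89 and 3.68. Counting by 1 bp of overlap raises the narrow classes most.

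Domains within 100 kb of a chorion gene carried much of this BEAF. In bam GKD these were 8 domains with 110 BEAF intervals, 28.9% of the BEAF in 6.12% of the domain bases. In WT these were 5 domains with 104, 36.1% of the BEAF in 17.7% of the bases. Without them the density was 0.832 per 10 kb in bam GKD domains and 2.27 in WT domains, so the difference between the lists was also present away from the clusters.

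Within bam GKD domains, BEAF lay where WT also had Stwl. The stretches of bam GKD domains under a WT interval measured 1.74 Mb and held 330 BEAF centres, or 1.90 per 10 kb (1.70 to 2.11). The stretches not under one measured 1.72 Mb and held 46, or 0.268 per 10 kb (0.196 to 0.358). Without the domains near chorion genes the densities were 1.47 per 10 kb under WT intervals and 0.236 outside them. Both the BEAF list and the WT list come from WT ovaries, and BEAF in bam GKD was not analysed here. Gene ends differed the same way: 2.78 per 10 kb under WT intervals and 1.15 outside them. BEAF is known to bind near gene starts, and the part of gene density in the BEAF difference was not tested. In WT domains the same split gave 3.12 BEAF centres per 10 kb under bam GKD intervals and 1.17 (0.625 to 2.01) outside them, over 0.111 Mb.

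Shared domains held more BEAF than the rest of the bam GKD domains. A BEAF interval lay in 44 of the 51 bam GKD domains that met a WT domain, or 86.3% (73.7 to 94.3), at 2.83 per 10 kb. It lay in 78 of the 213 that met only narrower WT intervals, or 36.6% (30.1 to 43.5), at 0.592 per 10 kb. Of the 224 BEAF intervals in the shared bam GKD domains, the chorion domains held 41 on 3L and 36 on X. The density of shared domains without them was not computed. Among WT domains the shares were closer, 84.0% in those that met a bam GKD domain and 79.3% in the others. Domains of X had BEAF more often than those of autosomes in both lists. The shares were 65.8% on X and 38.3% on autosomes in bam GKD, and 94.6% on X and 71.4% on autosomes in WT. All intervals had the same order. In bam GKD their shares were 25.0% on X and 15.9% on autosomes. In WT their shares were 36.2% on X and 25.1% on autosomes.

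Domains overlapped 505 of 13712 protein-coding genes in bam GKD (3.68%) and 232 in WT (1.69%), with 158 genes in both. The genes met were longer than most, with a median of 4348 bp in bam GKD and 3899.5 bp in WT, where all genes had 2140 bp. A long gene offers more ground to be met, so the main lists below have their median gene length beside the counts. Of the 292 genes of 50 kb or more, 59 (20.2%) were met in bam GKD and 11 (3.77%) in WT. Of the genes met, 209 of 505 lay whole inside domains in bam GKD and 101 of 232 in WT. A domain had at least 90% of its bases in a single gene in 103 cases in bam GKD (38.7%), where 47.3% of all bam GKD intervals did, and in 16 cases in WT (20.3%), where 42.9% of all WT intervals did. Borders lay within 500 bp of a gene end at 98 of 532 in bam GKD (18.4%), where 32.4% of the borders of all bam GKD intervals did. In WT 36 of 158 did (22.8%), where 44.4% of the borders of all WT intervals did. No protein-coding gene was met by 17 bam GKD domains (6.39%), where 23.7% of all bam GKD intervals met none, and by 0 WT domains, where 15.3% of all WT intervals met none. Most intervals of both lists were far narrower than the domains, so the adjacent class of 6 to 8 kb was set beside them. In that class 16.9% of borders in bam GKD and 19.4% in WT lay within 500 bp of a gene end. At least 90% of the bases lay in 1 gene at 32.6% of its intervals in bam GKD and 29.1% in WT. No protein-coding gene was met by 6.69% of them in bam GKD and 5.83% in WT.

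The ecdysone receptor and response genes, which act in egg chamber development, had a domain in 7 of 17 genes in bam GKD and 2 in WT. Their median length was 50703 bp. EcR and the nuclear receptor gene Hr39 had one in both lists, with 11282 bp in bam GKD and 10005 bp in WT at Hr39. The coactivator gene tai, the nuclear receptor genes Eip75B and ftz-f1, the ETS factor gene Eip74EF and Eip93F had one in bam GKD only. At Eip75B the widest interval was 19241 bp in bam GKD and 1974 bp in WT, and all intervals covered 31.1% of the gene in bam GKD and 6.07% in WT. At tai it was 18361 bp in bam GKD and 7857 bp in WT, just short of the threshold. At ftz-f1 it was 15324 bp in bam GKD and 5176 bp in WT.

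Among transcription factors of follicle cells, 4 of 14 genes (median length 33444 bp) had a domain in bam GKD and 0 in WT: bun, Eip74EF, ftz-f1 and ct, of which Eip74EF and ftz-f1 are also ecdysone genes. At ct the domain of 11157 bp covered 5.93% of the gene at its end. Cytoskeleton and adhesion genes (median length 18408 bp) had a domain at 4 of 21 in bam GKD and 1 in WT. The cortical actin linker gene Moe had one in both, with 9680 bp in bam GKD and 11491 bp in WT. Fas3, a cell adhesion gene, had a bam GKD domain of 10107 bp, and its widest WT interval was 364 bp. At ena, an actin regulator gene, the widest interval measured 10401 bp in bam GKD and 3076 bp in WT. At the actin gene Act5C it measured 10777 bp in bam GKD and 7981 bp in WT, just below the threshold. Of 10 yolk protein and vitelline membrane genes, Vm34Ca alone had a domain, in both lists.

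Germline stem cell and differentiation genes (median length 9833 bp) had a domain at 6 of 20 in bam GKD and 4 in WT. The genes with one in both were mei-P26, otu, brat and hts. The translational repressor gene brat had 8525 bp in bam GKD and 8070 bp in WT, and the adducin gene hts, whose product builds the fusome, 9641 bp in bam GKD and 8810 bp in WT. Rbfox1 and stwl itself had one in bam GKD only. The bam GKD domain at stwl (3L, 14402930 to 14409939) measured 14357 bp and covered 14.1% of the gene, and the widest WT interval at stwl measured 5963 bp. The bam gene met no domain in either list. BEAF-32, the gene of BEAF, lay whole in an interval of 7954 bp in bam GKD and 7383 bp in WT, both below the threshold.

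Oocyte and maternal genes (median length 3780 bp) had a domain at 2 of 16 in each list: gus in both, gnu in bam GKD and trk in WT. The 2 of 15 genes of H3K9 methylation and HP1 (median length 3410 bp) with a domain were the same in both lists. They were ova, whose product links HP1 to a demethylase in the ovary, and wde, a cofactor gene of the H3K9 methyltransferase Eggless. At ova the domain measured 9767 bp in bam GKD and 8767 bp in WT. It covered only 19.5% of ova in bam GKD, against 100.0% in WT. At wde the domain measured 10783 bp in bam GKD and 9151 bp in WT, over 42.0% and 46.4% of the gene. Gap and pair-rule genes (median length 2756 bp) had Kr and hry (hairy) in bam GKD, 2 of 18, and none in WT; the chorion domain of 3L reached over 11.2% of hry. The mastermind gene mam was the 1 of 20 Notch and EGFR genes (median length 20651 bp) with a domain. Its widest interval was 10408 bp in bam GKD and 6194 bp in WT.

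Ribosomal protein genes were the one list with more members in WT domains (median length 1318 bp), 1 of 83 in bam GKD and 4 in WT. RpS21 had 9121 bp in bam GKD and 8300 bp in WT. RpS14a and RpS14b, neighbouring paralogues, shared 1 WT domain of 9580 bp, and RpS15Aa lay in one of 9131 bp. All 3 were also covered in bam GKD, by an interval of 3090 bp at the RpS14 pair and of 4891 bp at RpS15Aa. Genes for odorant, gustatory and ionotropic receptors (median length 1688 bp) had 6 of 178 in bam GKD and 0 in WT. The 6 are 3.37% of the list, near the 3.68% of all protein-coding genes. Cuticle protein genes (median length 1093 bp) had 4 of 70 in bam GKD (5.71%) and 0 in WT. Neuronal channel and synapse genes (median length 37056 bp) had Shaw and nAChRalpha7 in bam GKD, 2 of 20, and nAChRalpha7 in WT. Muscle genes (median length 9995 bp) had Prm and up in bam GKD, 2 of 16, and Prm in WT. At Shaw no WT interval was found, and at the troponin gene up the widest WT interval measured 254 bp.

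The other 10 lists had no member with a domain in either list. They were the Hox genes (12), Wnt genes (19), BMP genes (12), Hedgehog and JAK-STAT genes (12), basement membrane genes (9), Polycomb and trithorax genes (20), insulator protein genes (13), nucleoporin genes (29), histone genes (111) and heat shock genes (19). The median gene length was 529 bp for histone genes and 2324 bp for heat shock genes, where all genes had 2140 bp. It was 20000 bp for Hox, 12470 bp for Wnt, 14995 bp for BMP and 7266 bp for Hedgehog and JAK-STAT genes. For basement membrane genes it was 9334 bp, for Polycomb and trithorax genes 8259 bp. Insulator protein genes had 2345 bp and nucleoporin genes 2779 bp.

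Domains also met genes of non-coding RNAs. Of 2736 tRNA, snoRNA, miRNA, lncRNA and snRNA genes, 101 met a domain in bam GKD (3.69%) and 65 in WT (2.38%). tRNA genes met one at 33 of 290 in bam GKD and 14 in WT, and all 14 of WT were those of the EcR locus. The other tRNA genes of bam GKD domains lay mostly in groups: 6 leucine tRNA genes in a domain of 25833 bp on 3L (8048271 to 8074103), near the kinase gene nmo, and 6 valine, proline and alanine tRNA genes in one of 11163 bp on 3R (17611857 to 17623019). Over intervals of any width the order was the other way, with 177 tRNA genes covered in bam GKD and 193 in WT. tRNA genes of a cluster share a domain.

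snoRNA genes met a domain at 3 of 265 in bam GKD and 16 in WT. All 16 of WT lay in 1 domain of 8045 bp on 2R (17697880 to 17705924), together with Uhg1, a host gene of snoRNAs. Intervals of any width covered 87 snoRNA genes in bam GKD and 90 in WT. miRNA genes met one at 10 of 251 in bam GKD and 7 in WT, and mir-276a and mir-276b lay in bam GKD domains of 10730 and 8835 bp on 3L that met no protein-coding gene. On X, a bam GKD domain of 9763 bp (21629670 to 21639432) reached lncRNA:flam, the flamenco transcript known as a piRNA source of follicle cells, with DIP1 beside it. No snRNA gene of 32 met a domain in either list.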

How the data were processed

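CUT&RUN interval lists of 3 of the 24 ovary samples were used, and the other 21 were not analysed here. As the authors deposited them, the lists hold only interval coordinates on dm6 (chromosome, start and end), with no score, strand, read count or depth. Tools in the submitters' processing notes are MACS2 2.1.0, deepTools 3.2.1, Bowtie2 2.2.8, Trim Galore 0.6.6, SAMtools 1.9 and FastQC 0.11.8. Their roles and settings, the control library and any pooling of duplicates are not given there. Neighbouring intervals were at least 76 bp apart in the BEAF list and 1001 bp apart in either Stwl list.

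Samples were grouped by title. Overlap meant 1 bp or more. Genes came from the Release 6 plus ISO1 MT annotation table, the same assembly as dm6, which gives no strand, exons or sequence, so gene ends were not split into starts and stops. Coordinates are 1-based. A gene end was either annotated end of a protein-coding gene. Shares have exact Clopper-Pearson and densities exact Poisson 95% intervals; domains are not replicates, and no test was run. Of 25 gene lists, 5 were taken by a symbol pattern, and the entries Dl and Z4 were not matched. Genes named are up to 4 per locus at the 8 widest loci of each class, members of each list that met a domain, and stwl, bam and BEAF-32; the genes of non-coding RNAs were chosen after their values were seen. One of the named loci is not reported here. The members and lists were chosen with earlier results of these data known. Alternatives were other width thresholds, overlap, gene and window settings, equal numbers of domains and no chorion domains; added after seeing the data were domains within 100 kb of chorion genes left out, Stwl intervals joined across gaps up to 2000 bp, and chromosome 4 and pericentric stretches kept. The overlap code was checked on simulated intervals. Python 3.11.15, pandas 2.3.3, NumPy 2.4.6, SciPy 1.17.1 and matplotlib 3.10.9 were used.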

Additional observations from a re-analysis of the deposited data

How the results depend on the processing

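Of 96 values under 11 alternative settings, 64 stayed within the counting interval of the reported value, or within 1.5 times a reported count, and 32 moved beyond it; these are counts, shares and densities of single lists, with no direction to reverse. A threshold of 6000 bp gave 505 domains in bam GKD and 182 in WT, 850 genes in bam GKD and 421 in WT, a WT domain at 25.7% of bam GKD domains, BEAF in 69.2% of WT domains and 2.50 BEAF intervals per 10 kb of WT domain. A threshold of 10000 bp gave 157 domains in bam GKD and 36 in WT, 119 genes in WT and a WT domain at 12.7% of bam GKD domains. With equal numbers of the widest domains, 25.3% of bam GKD and 25.3% of WT domains met a domain of the other list. With all domains these shares were 19.2% of bam GKD and 63.3% of WT domains. Nearly every match joined 1 domain of each list, so equal numbers make the 2 shares near equal by construction. Leaving out domains on a chorion gene gave 0.912 BEAF intervals per 10 kb in bam GKD and 2.36 in WT, and leaving out those within 100 kb gave 0.832 in bam GKD and 2.27 in WT. Genes with at least 50% of their length inside numbered 266 in bam GKD and 120 in WT. Borders near a gene end were 10.7% in bam GKD and 13.3% in WT with a window of 250 bp, and 26.3% in bam GKD and 32.9% in WT with 1000 bp. Joining Stwl intervals across gaps up to 2000 bp gave 701 domains in bam GKD and 272 in WT, 1619 genes in bam GKD and 931 in WT, 0.934 BEAF intervals per 10 kb in bam GKD and 2.22 in WT, a WT domain at 27.1% of bam GKD domains and 33.1% of WT borders near a gene end. Keeping chromosome 4 and pericentric stretches gave 2.45 BEAF intervals per 10 kb of WT domain. The causes of these shifts were not tested beyond what each setting changes by construction. No paired analysis was possible because each group had 1 list. Read depth is unknown, so the number and width of domains cannot be told apart from depth or caller settings.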
